A study of Mus musculus with 6 samples.

Results

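The genes described here are 44 interferon response genes, taken by symbol from a written list among the 23420 mouse genes counted in cultures of endothelial cells. The list holds sensors of foreign nucleic acid, interferon receptors, transcription factors of the response and the effectors that these factors switch on. All 44 symbols were found in the table, and all 44 passed the filter on low counts together with the rest of the 11608 genes tested. The cells were eEnd2, a line of endothelial cells from the mouse embryo, which had been stably transfected with a human Integrin-β1A carrying GFP in its extracellular part. In β1-WT-GFP cells the chimera was wildtype, and in β1-K794Q-GFP cells the lysine of the distal NPKY-motif was replaced by glutamine, which mimics an acetylated lysine. The study asked how this mimic of Integrin-β1 acetylation changes transcription in endothelial cells, and 3 cultures of each kind (named A to C) had their total RNA sequenced after removal of ribosomal RNA. The study describes 2 sequencing runs of the same samples, and the labels do not name the run behind the counts used here. Both chimeras were driven by a short piece of the human β-actin promoter joined to a matrix attachment region of the chicken lysozyme gene, the cells were grown to confluence in DMEM with fetal calf serum, and neither group was treated. Cells had been sorted into a population with low and another with high GFP, but the labels do not assign the cultures to these populations, so that the GFP level of a culture could not be set beside its interferon response genes. Labels and methods of the study name different CO2 levels.

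Interferons are secreted proteins that warn cells of a virus. Cells make type I interferon when sensors such as RIG-I, MDA5 or cGAS bind foreign or misplaced nucleic acid and activate IRF3 and IRF7. The interferon binds the receptor pair IFNAR1 and IFNAR2, the kinases JAK1 and TYK2 phosphorylate STAT proteins, and STAT2 joins IRF9 in a complex that binds the interferon-stimulated response element (ISRE) of its target genes. Type II interferon acts through IFNGR1 and IFNGR2, and the factors it activates bind the gamma-activated site (GAS). Endothelial cells respond to both types, and many of the sensors and factors are themselves targets, so that the response can amplify itself or persist at a low tonic level.

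The promoters of 33 of the 44 genes were found in the RefSeq table (GRCm38.p6), each as a window of 300 bases from 250 before to 50 after the start of a transcript. The ISRE core was searched on both strands as GAAA, any 2 bases, and GAAA again. The GAS core was searched as TTCNNNGAA, which reads the same on both strands. Of the 33 genes, 16 (48.5%) held an ISRE core and 9 (27.3%) held a GAS core. Of all 32851 windows of this length, 3.44% held the ISRE core and 8.3% the GAS core. Both motifs were in 4 of the 33 genes (Oas1a, Eif2ak2, Bst2 and Igtp), in Bst2 overlapping each other, and 12 held neither. Genes can have several windows, and the 37 windows of the 33 genes held the ISRE core in 43.2% and the GAS core in 24.3%. The following 6 windows are shown because they span what was found: several overlapping ISRE cores (Isg15), a pair of them on the opposite strand (Ifit1), both motifs side by side (Igtp), a GAS core alone (Irf1), an ISRE core in a gene of the pathway itself (Stat2) and no match (Irf3). Each runs 5′ to 3′ on the strand of its gene, and capitals mark the matches.
Isg15, chr4:156200769-156201068, minus strand: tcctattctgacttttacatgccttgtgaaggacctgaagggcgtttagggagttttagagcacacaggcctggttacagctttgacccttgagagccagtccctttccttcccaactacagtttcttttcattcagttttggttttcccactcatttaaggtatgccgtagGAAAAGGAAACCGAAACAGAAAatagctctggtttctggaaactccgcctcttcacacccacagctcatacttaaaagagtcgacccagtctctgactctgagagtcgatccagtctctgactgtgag
Ifit1, chr19:34640639-34640938, plus strand: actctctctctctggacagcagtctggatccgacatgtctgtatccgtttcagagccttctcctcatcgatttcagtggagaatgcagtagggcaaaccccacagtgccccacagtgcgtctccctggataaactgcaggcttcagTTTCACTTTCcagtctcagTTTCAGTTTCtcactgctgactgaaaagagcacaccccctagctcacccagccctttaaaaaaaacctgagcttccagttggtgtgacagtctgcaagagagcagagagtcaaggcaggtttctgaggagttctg
Igtp, chr11:58199306-58199605, plus strand: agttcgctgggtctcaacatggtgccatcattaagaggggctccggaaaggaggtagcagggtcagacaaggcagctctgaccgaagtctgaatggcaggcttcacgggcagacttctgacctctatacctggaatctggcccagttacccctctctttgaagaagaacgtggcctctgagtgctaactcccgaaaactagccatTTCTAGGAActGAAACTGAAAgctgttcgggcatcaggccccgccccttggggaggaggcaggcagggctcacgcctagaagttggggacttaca
Irf1, chr11:53769764-53770063, plus strand: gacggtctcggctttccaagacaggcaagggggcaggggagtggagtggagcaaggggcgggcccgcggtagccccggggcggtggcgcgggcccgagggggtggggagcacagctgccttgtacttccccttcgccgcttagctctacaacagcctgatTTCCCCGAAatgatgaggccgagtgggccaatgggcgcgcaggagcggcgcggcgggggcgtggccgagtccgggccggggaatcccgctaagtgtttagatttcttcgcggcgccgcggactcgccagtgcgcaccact
Stat2, chr10:128270248-128270547, plus strand: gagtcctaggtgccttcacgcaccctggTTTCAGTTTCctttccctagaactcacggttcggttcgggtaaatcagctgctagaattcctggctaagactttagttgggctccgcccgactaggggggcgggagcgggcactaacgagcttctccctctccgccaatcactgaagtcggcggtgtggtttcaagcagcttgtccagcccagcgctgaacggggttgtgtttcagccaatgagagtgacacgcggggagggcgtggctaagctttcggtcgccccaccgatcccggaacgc
Irf3, chr7:44997398-44997697, plus strand: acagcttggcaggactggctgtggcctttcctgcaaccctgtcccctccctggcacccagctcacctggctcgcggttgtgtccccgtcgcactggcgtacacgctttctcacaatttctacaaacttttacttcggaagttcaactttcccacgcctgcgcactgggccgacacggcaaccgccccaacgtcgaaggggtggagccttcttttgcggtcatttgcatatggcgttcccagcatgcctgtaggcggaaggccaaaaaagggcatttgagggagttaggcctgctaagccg
A match is a match of letters and was not tested as a binding site.

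Library sizes were 10918600, 9589826 and 15287191 for β1-WT-GFP A, B and C, and 10203916, 11197729 and 11071680 for β1-K794Q-GFP A, B and C, where the letter names the culture. Levels are given as CPM, the count of a gene scaled to the same library size in every culture with the TMM factors of edgeR. A gene with a count of 0 was taken to have up to 3 counts, which is 0.209 CPM in the deepest library and 0.300 CPM in the shallowest and takes in counting error alone. The cultures differed beyond their groups. Of all 11608 tested genes, 0.56% were at least 2-fold apart between β1-WT-GFP A and B, but 23.3% for A against C and 21.9% for B against C. The share within β1-K794Q-GFP cells was 17.2% for A against B, 7.78% for A against C and 22.1% for B against C. Set against counting noise alone, β1-WT-GFP A and B gave a chi-square per degree of freedom of 10.1 over 11427 genes. The other pairs of cultures gave 59.4 to 284. This does not tell separate cultures from repeated libraries of the same culture, and they were treated as separate because the labels name them as such. By the shares above, β1-WT-GFP C stood apart from the others of its group over all genes, and β1-K794Q-GFP B from the others of its own. The comparison of the groups is also given without β1-WT-GFP C. Fits without β1-K794Q-GFP B or another culture are given more briefly.

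The endothelial label was checked against the levels of 15 endothelial markers, which were all tested. The summed level of the 15 was 9266, 10215 and 9647 CPM in β1-WT-GFP A, B and C, and 7906, 14714 and 8897 CPM in β1-K794Q-GFP A, B and C. In the comparison of the groups, which does not bear on the label, 0 of the 15 were higher and 0 lower at both thresholds. Of all tested genes, 3.48% were higher and 1.71% lower. Single markers differed from the sum: β1-WT-GFP C was the lowest culture for Tek, Tie1 and Egfl7 and the highest for Kdr. Sox17 was at 17.9, 21.6 and 125 CPM in β1-WT-GFP and 97.6, 0.30 and 205 CPM in β1-K794Q-GFP A, B and C. Flt1 was lowest in β1-K794Q-GFP B (31.3 CPM) and highest in β1-K794Q-GFP C (457 CPM). Fli1 was higher in all β1-K794Q-GFP than in all β1-WT-GFP cultures, with a log2 fold change of 0.89. The most abundant of the 15 markers per kilobase of exon was Cdh5, which encodes VE-cadherin. Vwf was close to 0, with 0.26, 1.00 and 2.16 CPM in β1-WT-GFP and 2.41, 1.18 and 2.24 CPM in β1-K794Q-GFP A, B and C. Leukocytes also express many interferon response genes. Of 12 leukocyte markers 11 were in the table and 1 was tested, Cd68, which made up most of a summed level of 77.2, 89.0 and 48.6 CPM in β1-WT-GFP and 71.8, 104 and 32.0 CPM in β1-K794Q-GFP cultures. The leukocyte genes Lyz2, Cd3e, Ncr1 and Siglech had 0 counts in all 6 cultures, and Ptprc, the defining marker, was at 0.28 CPM in β1-WT-GFP C and had 0 counts in the other 5. Csf1r, a marker of macrophages, was at 0.44, 0.40 and 10.7 CPM in β1-WT-GFP and 0.39, 0.69 and 0.77 CPM in β1-K794Q-GFP A, B and C, and was thus highest in the culture with the lowest interferon response genes. Of 9 mesenchymal and fibroblast markers 2 were tested and 1, Prrx1, was lower in β1-K794Q-GFP cells. Their summed level was 184, 195 and 84.2 CPM in β1-WT-GFP and 3.08, 3.85 and 2.84 CPM in β1-K794Q-GFP cultures. Prrx1 alone was at 183, 194 and 56.5 CPM in the former and 0.096, 0.099 and 0 CPM in the latter, while Dcn and Lum had 0 counts throughout. Other markers of the list were highest in β1-WT-GFP C. Pdgfra was at 0.52, 0.70 and 16.4 CPM in β1-WT-GFP and 2.31, 0.30 and 0.95 CPM in β1-K794Q-GFP A, B and C, and Col1a1 at 0.087, 0.10 and 5.92 and 0.29, 0.20 and 1.46 CPM. Pdgfrb, Tagln and Acta2 were also highest in β1-WT-GFP C, at 2.30, 1.81 and 1.18 CPM, and Col1a2 in β1-K794Q-GFP B, at 3.16 CPM. Of 6 epithelial markers 0 were tested, 4 had 0 counts in all cultures, and the most abundant, Krt8, reached 0.59 CPM in a culture. What part the differences of these markers have in the results below was not tested.

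**Figure D1:**
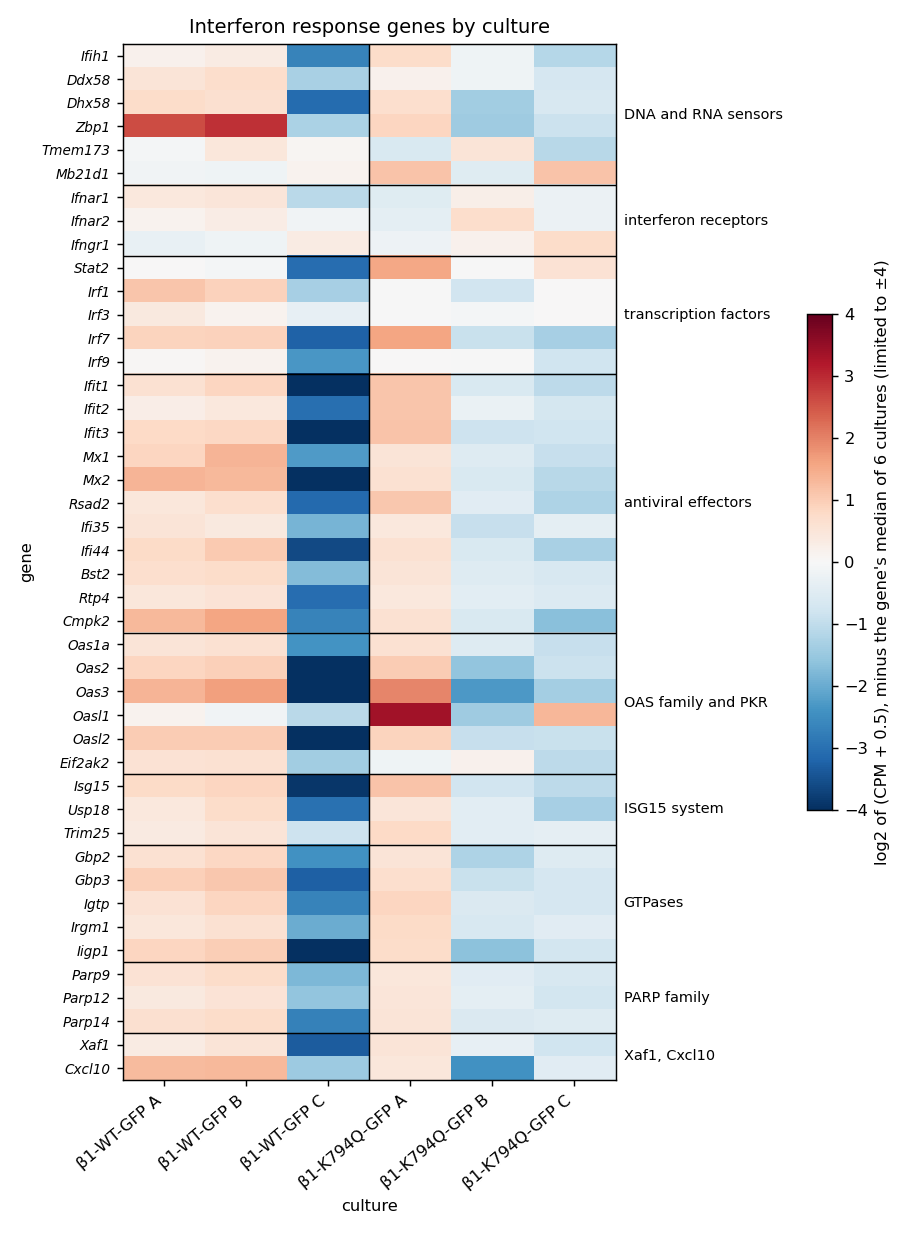
Level of each of the 44 interferon response genes in each culture, as log2 of CPM plus 0.5 minus the median of that gene over the 6 cultures, with colours limited to 4 in both directions. Rows are grouped by role. β1-WT-GFP C was the lowest culture in 37 of the 44 genes.

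The interferon response genes separated the cultures, not the groups. Their summed level was 10584, 11563 and 1514 CPM in β1-WT-GFP A, B and C, and 12077, 5265 and 4674 CPM in β1-K794Q-GFP A, B and C. As a share of all counts this was 1.11%, 1.21% and 0.142% in β1-WT-GFP and 1.23%, 0.476% and 0.491% in β1-K794Q-GFP cultures. The groups overlapped, since β1-WT-GFP C lay below and β1-WT-GFP A and B above β1-K794Q-GFP B and C. In bulk RNA, a smaller number of responding cells and less RNA per cell cannot be told apart. β1-WT-GFP C was the lowest of the 6 cultures in 37 of the 44 genes (84.1%, against 25.5% of all tested genes), and the 3 highest cultures were β1-WT-GFP A, β1-WT-GFP B and β1-K794Q-GFP A in 34 genes (77.3%, against 6.78%). The highest single culture was β1-WT-GFP B in 20 genes, β1-K794Q-GFP A in 15 and β1-WT-GFP A in 5.

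**Figure D2:**
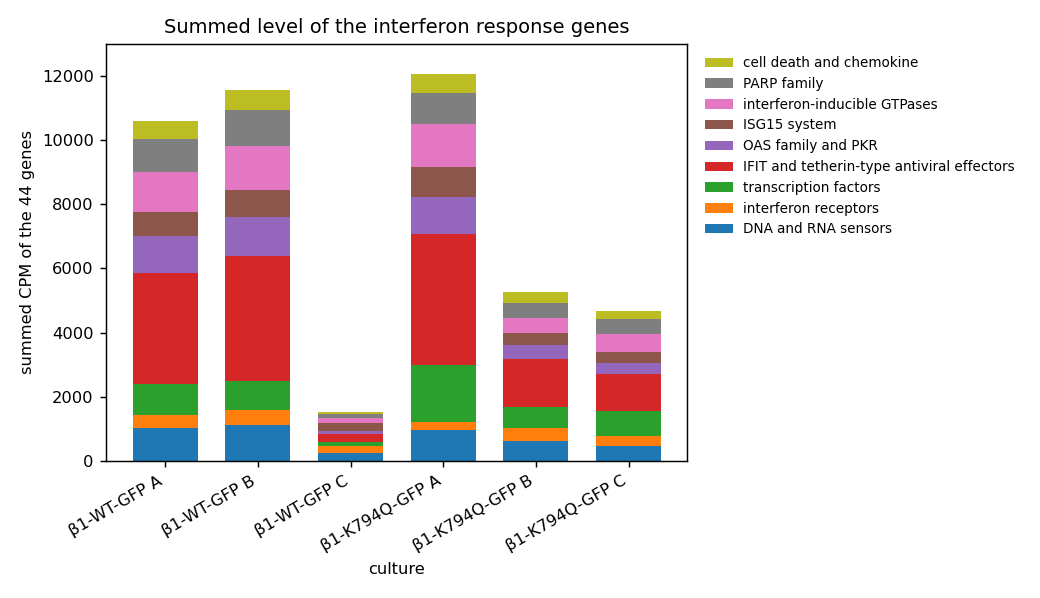
Summed CPM of the 44 interferon response genes in each culture, with each bar split by role of the genes. The bars reach 10584, 11563 and 1514 CPM in β1-WT-GFP and 12077, 5265 and 4674 CPM in β1-K794Q-GFP A, B and C.

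Compared culture by culture, 39 of the 44 genes (88.6%) were at least 2-fold lower in β1-WT-GFP C than in β1-WT-GFP A, against 11.7% of all tested genes. The median difference on the log2 scale was -3.09 over the 44 genes, with a range from -6.97 to 0.63, and 0.00 over all genes. None of the 44 was 2-fold apart between β1-WT-GFP A and B (0 of 44, against 0.56%). Within β1-K794Q-GFP cells, 29 of the 44 genes (65.9%) were at least 2-fold lower in culture B than in culture A, against 10.2% of all genes, and 30 (68.2%) were at least 2-fold lower in culture C than in culture A, against 3.57%. The median log2 differences were -1.23 and -1.31. Cultures B and C of these cells, in contrast, were 2-fold apart in 6 of the 44 genes (13.6%, against 22.1% of all genes). Between the groups, β1-K794Q-GFP A differed from β1-WT-GFP A by a median log2 of -0.04 over the 44 genes.

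**Figure D3:**
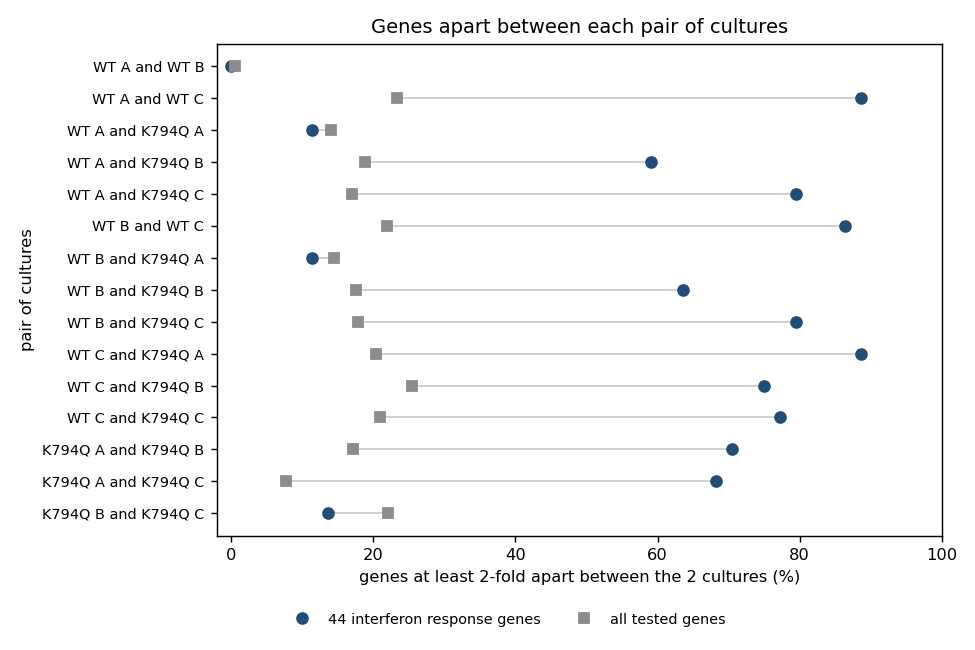
Share of genes at least 2-fold apart (in %) in each of the 15 pairs of cultures, for the 44 interferon response genes (circles) and for all tested genes (squares). The circles lie between 11.4% and 13.6% for β1-WT-GFP A or B with β1-K794Q-GFP A and for β1-K794Q-GFP B with C, at 0 for β1-WT-GFP A with B, and between 59.1% and 88.6% for the other pairs.

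In the comparison of β1-K794Q-GFP with β1-WT-GFP cells, none of the 44 genes passed the thresholds of the study. These are at least 2-fold and a p of at most 0.05, which was taken here as unadjusted. In edgeR's quasi-likelihood test 0 of 44 were higher (3.48% of all tested genes were) and 0 of 44 lower (1.71% of all tested genes). At an unadjusted p of at most 0.05 alone the count was also 0 of 44 (10.2% of all tested genes), and it was 2 with DESeq2 (11.5%) and 2 with edgeR's likelihood ratio test (9.31%). An adjusted p of at most 0.05 was reached by 0 of the 44 and by 0.181% of all tested genes, and the lowest adjusted p among the 44 was 0.551. In 0 of the 44 did the β1-K794Q-GFP cultures all lie above (8.45% of all genes) or all lie below (8.12%) the β1-WT-GFP cultures. The fitted log2 fold change was below 0 in 33 of the 44 genes (75%, against 51.6% of all tested genes), with a median of -0.22 over the 44 and -0.02 over all genes. This count rested on single cultures, as leaving out β1-WT-GFP B gave 17 of 44 and leaving out A gave 20. The p values measure only the spread between these cultures of stably transfected cells.

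Without β1-WT-GFP C, 4 of the 44 genes passed both thresholds as lower in β1-K794Q-GFP cells (9.09%, against 2.39% of all 11844 genes then tested) and 0 of 44 as higher (5.99% of all genes). The log2 fold change was then below 0 in 40 of the 44 (90.9%, against 46.7% of all genes). The 4 genes were Zbp1, Cmpk2, Mx2 and Irf1. With Ddx58, which stayed under 2-fold, 5 of the 44 had an unadjusted p of at most 0.05 in this fit, against 16.6% of all genes. Their log2 fold changes without that culture were -3.32, -1.71, -1.50 and -1.23, and their adjusted p (edgeR, quasi-likelihood) were 0.213, 0.286, 0.262 and 0.137. In this fit the spread within β1-WT-GFP cells comes from A and B alone, the closest pair of all, and the fit is singled out among the 6 that leave out a culture after the values had been seen. Leaving out 1 of the other cultures gave between 0 and 2 higher and between 0 and 1 lower genes among the 44. Of all genes, 2.67% to 5.25% were higher and 1.55% to 2.7% lower in these fits. The 2 higher genes came without β1-K794Q-GFP B, where 5.25% of all genes were higher and 2.7% lower. In that fit 23 of the 44 had a log2 fold change below 0.

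**Figure D4:**
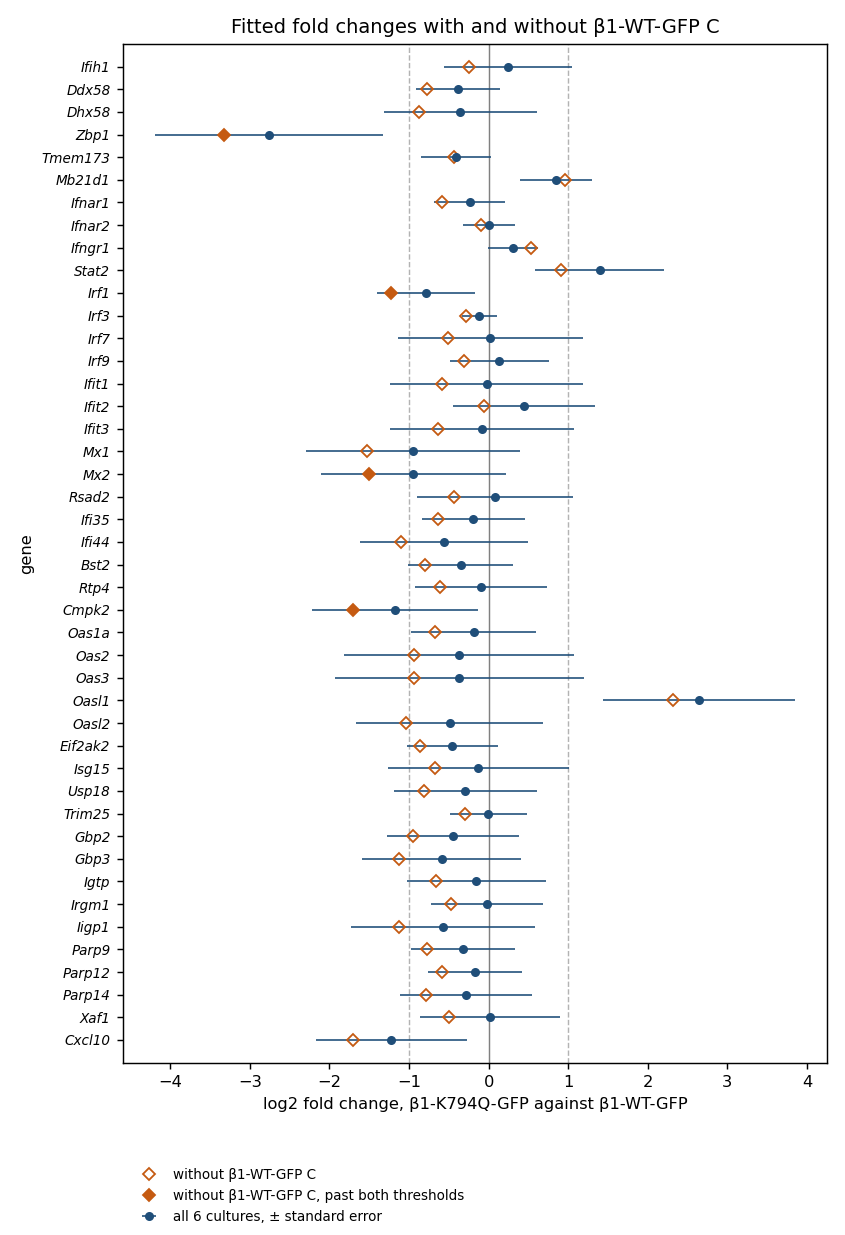
Fitted log2 fold change, β1-K794Q-GFP over β1-WT-GFP, for each of the 44 genes, from all 6 cultures with its standard error (circles) and without β1-WT-GFP C (diamonds, filled where past both thresholds). Dashed lines mark a fold change of 2 in either direction. Without that culture 40 of the 44 values lie below 0.

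The genes listed as sensors among the 44 were split. Ifih1, Ddx58 and Dhx58, which encode the RNA helicases MDA5, RIG-I and LGP2, varied with the interferon targets. Mb21d1 and Tmem173, which encode cGAS and STING, did not. Ddx58 (chr4:40203773-40239828) was at 599, 681 and 171 CPM in β1-WT-GFP A, B and C and at 474, 372 and 266 CPM in β1-K794Q-GFP A, B and C. In brackets after a log2 fold change, the range is that of 6 fits, each without 1 of the cultures. Ddx58 was the sensor with the highest level per kilobase, and its log2 fold change was -0.38 (standard error, SE, 0.53, adjusted p = 0.896, quasi-likelihood test, range -0.78 to -0.06, without β1-WT-GFP C -0.78). Ifih1 was at 166, 184 and 22.4 CPM in β1-WT-GFP and 245, 128 and 66.0 CPM in β1-K794Q-GFP A, B and C. Dhx58 was at 197, 187 and 13.7 CPM in the former and 189, 45.4 and 75.7 CPM in the latter. In both of these genes β1-WT-GFP C was the lowest and the groups overlapped. Zbp1, a sensor of left-handed nucleic acid that can start necroptosis, was at 10.8, 13.6 and 0.28 CPM in β1-WT-GFP and 2.89, 0.20 and 0.52 CPM in β1-K794Q-GFP A, B and C, so that it was high in β1-WT-GFP A and B and close to the limit of detection in β1-WT-GFP C and β1-K794Q-GFP B and C. It had the most negative log2 fold change of the 44, -2.76 (SE 1.43, adjusted p = 0.614, quasi-likelihood test). Besides leaving out β1-WT-GFP C, it passed both thresholds without β1-K794Q-GFP A, at -4.45, and with DESeq2 and the likelihood ratio test. Over the 6 fits that left out a culture the value ran from -4.45 to -2.19.

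Mb21d1 (chr9:78430526-78443237) was at 13.4, 12.996 and 16.1 CPM in β1-WT-GFP and 32.7, 10.4 and 33.3 CPM in β1-K794Q-GFP A, B and C. It was thus 1 of the 7 genes in which β1-WT-GFP C was not the lowest, and β1-K794Q-GFP A and C lay above all others while culture B lay below. Its log2 fold change of 0.85 (SE 0.45, adjusted p = 0.62) rose to 1.22 and passed both thresholds without β1-K794Q-GFP B (adjusted p = 0.0702), the highest value when each culture was left out (0.61 to 1.22). Tmem173 was at 30.2, 43.7 and 33.9 CPM in β1-WT-GFP and 20.6, 45.9 and 14.7 CPM in β1-K794Q-GFP cultures. Its log2 fold change of -0.41 (SE 0.44, adjusted p = 0.85) became -1.02 and passed both thresholds without the same culture (adjusted p = 0.184), the lowest value when each culture was left out (-1.02 to -0.11). Of the 6 sensors, Ddx58, Dhx58, Zbp1 and Tmem173 had fold changes below 0 and Ifih1 and Mb21d1 above 0.

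The receptor genes varied less than the targets. Ifnar1 and Ifnar2 encode the chains of the type I receptor and both lie on chromosome 16, and Ifngr1 encodes the ligand-binding chain of the type II receptor. Ifnar1 was at 343, 362 and 122 CPM in β1-WT-GFP and 182, 302 and 218 CPM in β1-K794Q-GFP A, B and C. Ifnar2 was at 54.8, 60.3 and 44.6 CPM in β1-WT-GFP and 37.6, 80.6 and 42.3 CPM in β1-K794Q-GFP cultures. In Ifnar1 β1-WT-GFP C was again the lowest, whereas Ifnar2 was lowest in β1-K794Q-GFP A, a culture in which the targets were high. Ifngr1 was at 25.0, 27.4 and 38.9 CPM in β1-WT-GFP and 26.6, 34.2 and 51.9 CPM in β1-K794Q-GFP cultures, and was the 1 gene lowest in β1-WT-GFP A. Its log2 fold change was 0.30 (SE 0.31, adjusted p = 0.84, quasi-likelihood test, range -0.00066 to 0.53, without β1-WT-GFP C 0.53). Fold changes were above 0 for Ifnar2 and Ifngr1 and below 0 for Ifnar1.

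Of the 9 interferon genes listed beside the receptors, 7 had 0 counts in all 6 cultures (Ifna1, Ifna2, Ifna4, Ifnk, Ifng, Ifnl2 and Ifnl3), Ifnb1 and Ifne had at most 3 counts in a culture, and 0 of the 9 passed the filter. The counts of these 9 genes thus did not exceed the limit that a count of 0 allows in any culture, and the further interferon alpha genes were not listed. Other genes of the pathway that were listed for their function are given with the factors below.

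Among the transcription factors, Stat2, Irf7 and Irf9 followed the targets with a low β1-WT-GFP C, and Irf3 varied by less than 2-fold. Irf3, which is activated by phosphorylation after a sensor has bound nucleic acid, was at 49.3, 40.9 and 29.6 CPM in β1-WT-GFP and 37.1, 35.7 and 37.7 CPM in β1-K794Q-GFP A, B and C. The means were 39.9 ± 9.90 and 36.8 ± 0.99 CPM (SD, n = 3 each), and the log2 fold change was -0.12 (SE 0.22, range -0.28 to 0.06004, without β1-WT-GFP C -0.28). Its window, shown above, held neither motif. Irf7, the inducible factor that amplifies the response, was at 258, 264 and 14.1 CPM in β1-WT-GFP and 416, 73.7 and 54.3 CPM in β1-K794Q-GFP cultures. Irf9, the DNA-binding partner of STAT2, was at 141, 151 and 26.7 CPM in β1-WT-GFP and 139, 133 and 77.3 CPM in β1-K794Q-GFP cultures. β1-K794Q-GFP B lay close to culture A in Irf9 but far below it in Irf7. Both genes had fold changes above 0. Irf1, a factor induced by type II interferon, was at 121, 107 and 21.8 CPM in β1-WT-GFP and 55.6, 32.5 and 56.4 CPM in β1-K794Q-GFP A, B and C. The β1-K794Q-GFP cultures all lay below β1-WT-GFP A and B and above C, and here β1-K794Q-GFP A did not exceed culture C. The log2 fold change of Irf1 was -0.79 (SE 0.61, adjusted p = 0.768, range -1.23 to -0.43, without β1-WT-GFP C -1.23), and the window shown above, 1 of its 2, held a GAS core alone.

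Stat2 (chr10:128270559-128292849), which encodes the STAT protein specific to type I and type III interferon, departed from the other factors. It was at 382, 361 and 45.5 CPM in β1-WT-GFP A, B and C and at 1123, 381 and 564 CPM in β1-K794Q-GFP A, B and C. β1-WT-GFP C was the lowest, as in the targets, but β1-K794Q-GFP A lay far above β1-WT-GFP A and B, culture C above them as well, and culture B at their level. The log2 fold change was 1.39 (SE 0.81, adjusted p = 0.666, quasi-likelihood test, range 0.86 to 1.76, without β1-WT-GFP C 0.91), which did not pass the thresholds. The genes around Stat2 were higher in the same cultures. The median of its 24 tested neighbours on chromosome 10, on the log2 scale relative to the β1-WT-GFP mean, was 1.71, 0.63 and 1.51 in β1-K794Q-GFP A, B and C against 0.03, 0.01 and 0.01 in the β1-WT-GFP cultures. With that level taken out of each gene and culture, an alternative chosen after the data were seen, the log2 fold change of Stat2 was 0.02. Ifngr1, the other of the 2 genes on this chromosome, lies far from Stat2 at chr10:19591949-19610229 and had no such shift in its neighbours (-0.09, 0.11 and -0.02 in β1-K794Q-GFP cultures).

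Of 107 further interferon genes listed for the pathway, 103 were in the table and 86 were tested, and 0 of them were higher (3.48% of all tested genes were) and 0 lower (1.71%) at both thresholds. β1-WT-GFP C was the lowest culture in 58 of the 86 (67.4%, against 25.5% of all tested genes). The kinase gene Jak1 was at 257, 289.6 and 319 CPM in β1-WT-GFP and 232, 353 and 272 CPM in β1-K794Q-GFP cultures. Tyk2 was at 97.6, 90.4 and 53.4 CPM in β1-WT-GFP and 63.5, 61.4 and 65.5 CPM in β1-K794Q-GFP cultures, with a log2 fold change of -0.34 (SE 0.25, range -0.55 to -0.18, without β1-WT-GFP C -0.55). In Jak1 β1-WT-GFP C was the highest of its group, and in Tyk2 it was the lowest by less than 2-fold. Ifngr2, the second chain of the type II receptor, was at 66.9, 78.5 and 49.9 CPM in β1-WT-GFP and 51.5, 102 and 41.4 CPM in β1-K794Q-GFP cultures. Mavs, the adaptor of RIG-I and MDA5 on mitochondria, was at 24.4, 29.7 and 22.5 CPM in β1-WT-GFP and 28.6, 28.4 and 27.6 CPM in β1-K794Q-GFP cultures, with a log2 fold change of 0.14 (SE 0.18, range 0.07 to 0.26, without β1-WT-GFP C 0.07). Both groups overlapped in each of these genes.

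Tbk1, the kinase that phosphorylates IRF3, was at 98.1, 97.4 and 84.5 CPM in β1-WT-GFP and 231, 113 and 213 CPM in β1-K794Q-GFP A, B and C, and all β1-K794Q-GFP cultures lay above all β1-WT-GFP cultures. The log2 fold change of 0.99 (SE 0.29, adjusted p = 0.293) was just short of a fold change of 2, and it lay between 0.81 and 1.26 when each culture was left out. It passed both thresholds in 3 of these 6 fits, without β1-WT-GFP A (1.03), β1-WT-GFP B (1.02) or β1-K794Q-GFP B (1.26). Tbk1 also lies on chromosome 10 (chr10:121546455-121586787), and with the level of its neighbours taken out its log2 fold change was -0.0025. The β1-K794Q-GFP cultures all lay above in 5 of the 86 genes, Tbk1, Ifi47, Pml, Slfn8 and Plscr1, and all below in 5, Aim2 among them (5.81% each, against 8.45% and 8.12% of all genes). Apart from Tbk1, the genes named in this paragraph were picked after their values were seen. Aim2, a sensor of cytosolic DNA, was at 173, 164 and 154 CPM in β1-WT-GFP and 75.0, 0.20 and 75.9 CPM in β1-K794Q-GFP A, B and C. It was close to the limit of detection in β1-K794Q-GFP B and did not have the low β1-WT-GFP C of the targets. Without β1-WT-GFP C, 1 of 87 tested pathway genes was higher (Jak2, 1.61 on the log2 scale) and 6 were lower at both thresholds (1.15% and 6.9%, against 5.99% and 2.39% of all genes). The 6 were Gbp5, Gbp6, Gbp9, Oas1b, Tgtp2 and Tor3a, with log2 fold changes from -2.73 for Tgtp2 to -1.17 for Gbp9.

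In all 11 antiviral effectors β1-WT-GFP C was the lowest. Their summed level was 3482, 3901 and 239 CPM in β1-WT-GFP A, B and C and 4098, 1507 and 1151 CPM in β1-K794Q-GFP A, B and C. Ifit1, Ifit2 and Ifit3, which encode proteins that bind viral RNA or the complexes around it, lie together on chromosome 19, Ifit1 at chr19:34640871-34650009, Ifit2 at chr19:34550694-34576419 and Ifit3 at chr19:34583531-34588731. Ifit1 was at 452, 544 and 11.004 CPM in β1-WT-GFP and 649.6, 196 and 144 CPM in β1-K794Q-GFP A, B and C. With a high and a low culture in both groups its log2 fold change was -0.03 (SE 1.21, adjusted p = 0.997, quasi-likelihood test, range -0.98 to 0.51, without β1-WT-GFP C -0.58). Ifit2 was at 397, 451 and 40.5 CPM in β1-WT-GFP and 725, 280.3 and 206 CPM in β1-K794Q-GFP cultures. Ifit3 was at 531, 545 and 15.9 CPM in β1-WT-GFP and 679, 175 and 178 CPM in β1-K794Q-GFP cultures. Each of these genes was highest in β1-K794Q-GFP A and lowest in β1-WT-GFP C. The Ifit genes resemble each other in sequence, as do the Oas, Mx and Gbp genes, so that reads of 1 copy may have been lost or counted for another.

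Rsad2 and Cmpk2, next to each other on chromosome 12 (chr12:26442746-26456452 and chr12:26469204-26479837), encode viperin, which makes a chain-terminating nucleotide, and the kinase that supplies its substrate. Rsad2 was at 388, 448 and 32.0 CPM in β1-WT-GFP and 595, 205 and 119 CPM in β1-K794Q-GFP A, B and C. Cmpk2 was at 177, 214 and 10.9 CPM in β1-WT-GFP and 109, 47.1 and 22.0 CPM in β1-K794Q-GFP cultures. Although neighbours, they differed in β1-K794Q-GFP A, which was the highest culture in Rsad2 but lay below β1-WT-GFP A and B in Cmpk2, whose log2 fold change was -1.18 (SE 1.04, adjusted p = 0.809, range -1.95 to -0.67, without β1-WT-GFP C -1.71). The dynamin-like GTPases Mx1 and Mx2 both lie on chromosome 16. Mx2 was at 224, 216 and 5.01 CPM in β1-WT-GFP and 134, 57.1 and 40.2 CPM in β1-K794Q-GFP cultures, with a log2 fold change of -0.94 (SE 1.16, adjusted p = 0.875, range -1.60 to -0.52, without β1-WT-GFP C -1.50). Mx1 was much lower, at 3.85, 5.599 and 0 CPM in β1-WT-GFP and 2.89, 1.18 and 0.77 CPM in β1-K794Q-GFP cultures, where 0 stands for a count of 0 and allows up to 0.209 CPM, and it had the lowest level per kilobase of the 44.

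Bst2, which encodes tetherin, a membrane protein that holds budding virus on the cell, was at 262, 273 and 49.5 CPM in β1-WT-GFP and 237, 115 and 106 CPM in β1-K794Q-GFP A, B and C. Ifi44 was at 734, 891 and 35.1 CPM in β1-WT-GFP and 667, 282 and 176 CPM in β1-K794Q-GFP cultures. Rtp4 was at 189, 204 and 16.3 CPM in β1-WT-GFP and 186, 104 and 94.0 CPM in β1-K794Q-GFP cultures. Bst2 fell less between β1-WT-GFP A and C than Ifi44 or Rtp4 did. Ifi35, a leucine zipper protein, was at 122, 110.0 and 22.9 CPM in β1-WT-GFP and 113, 44.6 and 64.8 CPM in β1-K794Q-GFP cultures. Of the 11 effectors, 9 had a fold change below 0 (Ifit1, Ifit3, Mx1, Mx2, Ifi35, Ifi44, Bst2, Rtp4 and Cmpk2), and Ifit2 and Rsad2 had one above 0.

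The OAS genes encode enzymes that make 2′-5′-linked oligoadenylate when they bind double-stranded RNA, and Eif2ak2 encodes PKR, the kinase that halts translation. Oas1a was at 87.8, 93.8 and 11.2 CPM in β1-WT-GFP and 94.0, 43.1 and 32.4 CPM in β1-K794Q-GFP A, B and C. Oas2 was at 280.4, 297 and 1.74 CPM in β1-WT-GFP and 312, 51.2 and 84.5 CPM in β1-K794Q-GFP cultures. Oas3 was at 135, 165 and 1.81 CPM in β1-WT-GFP and 203, 10.2 and 20.04 CPM in β1-K794Q-GFP cultures. Oas2 and Oas3, which adjoin on chromosome 5 (chr5:120730333-120749853 and chr5:120753098-120777661), fell further between β1-WT-GFP A and C than Oas1a. Oasl2, a ubiquitin-like relative, was at 330.4, 334 and 8.08 CPM in β1-WT-GFP and 306, 85.9 and 87.6 CPM in β1-K794Q-GFP cultures. Eif2ak2 was at 312, 318 and 78.8 CPM in β1-WT-GFP and 185, 232 and 100.1 CPM in β1-K794Q-GFP cultures. Unlike in the OAS genes, β1-K794Q-GFP B lay above culture A in Eif2ak2.

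Oasl1 (chr5:114923240-114937915), which adjoins Oasl2 and has been described as a brake on the translation of IRF7, was the exception of this family. It was at 3.32, 2.60 and 1.11 CPM in β1-WT-GFP A, B and C and at 35.05, 0.79 and 8.17 CPM in β1-K794Q-GFP A, B and C. β1-K794Q-GFP A and C lay above all β1-WT-GFP cultures and culture B below them. Its log2 fold change of 2.65 was the highest of the 44 (SE 1.21, adjusted p = 0.551, quasi-likelihood test) but missed the thresholds. It was 3.22 and passed them when β1-K794Q-GFP B was left out (adjusted p = 0.144), and it also passed them with DESeq2, with the likelihood ratio test and with the level of neighbouring genes taken out (2.92). Without β1-K794Q-GFP A, the culture with its highest level, it fell to 0.95 and missed both thresholds. Oas1a, Oas2, Oas3, Oasl2 and Eif2ak2 had fold changes below 0.

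The ISG15 system attaches a ubiquitin-like protein to other proteins. Isg15 (chr4:156199424-156200818), the modifier itself, was at 116, 124 and 4.11 CPM in β1-WT-GFP and 151, 39.8 and 32.6 CPM in β1-K794Q-GFP A, B and C. The means were 81.5 ± 67.2 CPM in β1-WT-GFP and 74.4 ± 66.3 CPM in β1-K794Q-GFP cells (SD, n = 3 each), and the SD was nearly as large as the mean in both groups. Its log2 fold change was -0.13 (SE 1.14, adjusted p = 0.981, quasi-likelihood test, range -1.16 to 0.30, without β1-WT-GFP C -0.68). Its window held the 3 overlapping ISRE cores shown above. Usp18, the protease that removes ISG15 and also dampens the type I receptor, was at 139, 173 and 12.9 CPM in β1-WT-GFP and 145, 78.5 and 41.1 CPM in β1-K794Q-GFP cultures. Trim25, a ubiquitin ligase that activates RIG-I, was at 471, 526 and 209 CPM in β1-WT-GFP and 638, 274 and 290.3 CPM in β1-K794Q-GFP cultures. Trim25 had a smaller span across the cultures than Isg15 and Usp18, with β1-WT-GFP C less than 3-fold below culture A. All 3 had fold changes below 0.

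The interferon-inducible GTPases take part in the defence against intracellular pathogens, and β1-WT-GFP C was the lowest in all 5 of them. Gbp2 and Gbp3, from a cluster on chromosome 3, were at 124, 141 and 14.4 CPM and 242, 259 and 12.5 CPM in β1-WT-GFP A, B and C. In β1-K794Q-GFP A, B and C, Gbp2 was at 114, 33.9 and 56.0 CPM and Gbp3 at 198, 65.9 and 77.1 CPM. In both, β1-K794Q-GFP B lay below C. Irgm1 was at 599, 671 and 111 CPM in β1-WT-GFP and 753, 283 and 326 CPM in β1-K794Q-GFP cultures. Igtp, also called Irgm3, was at 88.2, 109 and 8.98 CPM in β1-WT-GFP and 108, 40.1 and 37.3 CPM in β1-K794Q-GFP cultures, and since its locus overlaps that of Irgm2, reads of these genes may not have been told apart. Iigp1 was at 193, 210.1 and 6.20 CPM in β1-WT-GFP and 177, 33.5 and 63.4 CPM in β1-K794Q-GFP cultures. Irgm1 had the highest level per kilobase of the 5 and the smallest span between β1-WT-GFP A and C. All 5 had fold changes below 0.

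The PARP genes of the response encode ADP-ribosyltransferases, of which PARP9 pairs with DTX3L. Parp9 was at 231, 256 and 43.9 CPM in β1-WT-GFP and 211, 114 and 98.7 CPM in β1-K794Q-GFP A, B and C. Parp12 was at 161, 177 and 40.7 CPM in β1-WT-GFP and 170.0, 93.0 and 73.1 CPM in β1-K794Q-GFP cultures. Parp14 was at 650.2, 690.0 and 62.5 CPM in β1-WT-GFP and 588, 275 and 289 CPM in β1-K794Q-GFP cultures. β1-K794Q-GFP B and C lay between β1-WT-GFP C and the other cultures in all 3, and all 3 had fold changes below 0. Xaf1, which promotes cell death, was at 515, 584 and 40.8 CPM in β1-WT-GFP and 589, 327 and 238 CPM in β1-K794Q-GFP cultures, with a fold change above 0. Cxcl10, the chemokine that draws T cells through CXCR3, was at 34.0, 34.8 and 4.74 CPM in β1-WT-GFP and 19.3, 2.17 and 9.98 CPM in β1-K794Q-GFP A, B and C. Its lowest culture was β1-K794Q-GFP B and not β1-WT-GFP C, and its log2 fold change was -1.22 (SE 0.95, adjusted p = 0.768, range -1.99 to -0.73, without β1-WT-GFP C -1.70).

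Between genes, levels were compared per kilobase of exon, as the mean over the 6 cultures. Ifit3 (203 CPM per kilobase) and Bst2 (192) were the highest, followed by Ifit1 (125) and Isg15 (103), and Oasl1 (3.26), Zbp1 (1.33) and Mx1 (0.63) were the lowest. The order was not the same in each culture. Ifit3 came first in β1-WT-GFP A and B and in β1-K794Q-GFP A, with 305, 312 and 389 CPM per kilobase, and Bst2 in the others. In β1-WT-GFP C, Bst2 (54.8 CPM per kilobase) was followed by Trim25 (36.4), Ddx58 (24.2) and the receptor gene Ifnar1 (20.5). The differences between neighbours in this order were smaller than the spread between cultures.

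The 44 genes lay on 16 chromosomes, with 7 on chromosome 11, 7 on chromosome 16 and 6 on chromosome 5. Genes at separate sites on different chromosomes, such as Isg15 on chromosome 4, Ifit1 on chromosome 19, Mx2 on chromosome 16 and Oas2 on chromosome 5, had the same low β1-WT-GFP C.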

How the data were processed

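The values are unnormalized counts for each mouse gene symbol, deposited by the authors for 3 β1-WT-GFP and 3 β1-K794Q-GFP cultures of eEnd2 cells (total RNA, ribosomal RNA removed). The submitters' processing notes name bcl2fastq 2.20.0, STAR 2.7.4a, HTSeq 0.9.1 and edgeR 3.38.4, and the build mm10. How reads over overlapping or near-identical genes were counted, and whether strand was used, is not given in the sources used here.

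The analysis used edgeR 4.0.16 in R 4.3.3. Low counts were removed with filterByExpr, libraries were scaled with TMM, and the groups were compared over all 11608 genes left by its two-sided quasi-likelihood test (common dispersion 0.186) and Benjamini-Hochberg adjustment over all of them. A gene passed when it was at least 2-fold changed at an unadjusted p of at most 0.05. The study's methods name these 2 values without saying whether the p was adjusted. Standard errors were computed as the absolute log2 fold change over the root of the F statistic. Folds between cultures are ratios of CPM plus 0.5. Depth ranged from 9589826 to 15287191 counts.

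The members and lists were chosen with earlier results of these data known. Every tested member is named with its direction, and members with a mean of at least 5 CPM in either group are given by culture. Of the pathway list, genes past both thresholds were to be given, and Jak1, Tyk2, Ifngr2, Mavs and Tbk1 were among those to be given in any case.

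Positions and exon lengths came from GENCODE M21 (GRCm38): 21777 symbols matched directly, 1278 through a synonym and 365 not. Promoters came from RefSeq (GRCm38.p6), where Mb21d1 is listed as Cgas. The test was first run on simulated counts, with a common dispersion and the same mean for all cultures of a group. In the data β1-WT-GFP C stood apart from A and B, so that the simulation does not show how the test performs on them. Alternatives were no filter, at least 10 counts in every culture, RLE, DESeq2 1.42.0, the likelihood ratio test, the culture letter as a replicate block, and leaving out each culture. A fit with the level of 24 neighbouring genes taken out was chosen after seeing the data. Figures were made in Python 3.11.15 with matplotlib 3.10.9.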

Additional observations from a re-analysis of the deposited data

How the results depend on the processing

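With DESeq2, and likewise with edgeR's likelihood ratio test, 1 of the 44 genes was higher (Oasl1) and 1 lower (Zbp1). Of all genes, 4% were higher and 1.99% lower with DESeq2, and 4.12% and 2.15% with the likelihood ratio test. With the level of neighbouring genes taken out, an alternative chosen after seeing the data, 1 of the 44 was higher (Oasl1) and 0 lower. Of all genes, 2.92% were higher and 1.57% lower in that fit. Leaving out each culture gave 0 to 2 higher and 0 to 4 lower among the 44, and 17 to 40 with a log2 fold change below 0, whose median lay between -0.79 and 0.11. No gene of the 44 reached an adjusted p of at most 0.05 in any of the 13 alternatives. Over all genes, leaving out each culture gave 317 to 709 higher and 184 to 320 lower, against 404 and 199. Lower genes were 326 with no filter and 111 with at least 10 counts in every culture, where more or fewer genes were tested. Genes at an adjusted p of at most 0.05 numbered 477 with DESeq2 and 318 with the likelihood ratio test, 4 with at least 10 counts, 13 with neighbours taken out and 0 to 125 with each culture left out, against 21.

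Of the 44 genes, 30 had another sign in at least 1 of the 13 alternatives and 14 kept 1 sign. Among the genes whose log2 fold changes are given in the text, sign turned for Isg15 (0.14 with neighbours taken out, -1.16 to 0.30 with each culture left out), Ifit1 (-0.98 to 0.51), Irf3 (0.0582 with neighbours taken out, -0.28 to 0.06004), Ifngr1 (-0.00066 to 0.53) and Tbk1 (-0.0025 with neighbours taken out). The cause was not tested. Oasl1, Zbp1 and Mx1 could not be fitted at a minimum of 10 counts in every culture.

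Between cultures of equal letter, deviations from the group means had correlations of 0.109 for A, 0.055 for B and 0.102 for C. Of the unlike letters, β1-K794Q-GFP A correlated at 0.113 with β1-WT-GFP B and at -0.118 with C. β1-K794Q-GFP B gave -0.038 with A and -0.0078 with C, and β1-K794Q-GFP C gave -0.033 with A and -0.162 with B. The equal letter was thus the best match for B and C, but not for A. These low values do not settle whether the letters pair the cultures. The main fit has no pairing, and there 33 of the 44 genes had a log2 fold change below 0 (median -0.22). With the letter as a replicate block, 0 of the 44 were higher and 0 lower, 17 had a log2 fold change below 0 (median 0.14), 371 of all genes were higher and 200 lower, the adjusted p was at most 0.05 for 1 gene (against 21), and the log2 fold changes of Isg15 and Ifit1 were 0.50 and 0.81, and that of Oasl1 was 1.86.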
